A study of Mus musculus with 6 samples.

Results

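The genes described are the mouse splicing factor and hnRNP genes: those with an official symbol that begins with Srsf, Hnrnp, Snrp, Sf3a, Sf3b, Prpf or U2af. They were chosen by symbol alone, from probe sets that the platform annotation gives to 1 gene, and each was represented by its probe set of highest mean signal over the 6 arrays. This gave 62 of the 18193 genes with a probe set: 19 hnRNPs, 12 pre-mRNA processing factors, 10 SR proteins, 9 SF3a and SF3b proteins, 9 snRNP proteins and 3 U2AF genes. Total RNA was taken from 3 neural stem cell lines labelled FoxO-null and 3 labelled wild-type, all from mouse and described by the submitters as independent, and each line was hybridised to its own Affymetrix array. Which FoxO alleles were deleted, by what means, and the age of the animals and passage of the cells are not given in the sources used here, and no treatment is named for either group. Values are signals from MAS5, Affymetrix's summary of the probes of a probe set, on a linear scale. Fold changes are differences of log2(signal + 5.94), FoxO-null minus wild-type, from limma's moderated test on 12663 genes, and a gene was called at a Benjamini-Hochberg adjusted p under 0.05.

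Pre-mRNA splicing is carried out by the spliceosome, which assembles on each intron from small nuclear RNAs bound by shared Sm proteins and by particle-specific proteins. U2AF recognises the end of the intron, SF3a and SF3b hold the U2 particle at the branch point, and the pre-mRNA processing factors work largely in the particles and rearrangements that follow. SR proteins bind exons and mostly favour their inclusion, while hnRNPs coat nascent RNA and often oppose it, so their balance shapes alternative splicing, which is extensive in neural cells. FoxO proteins are transcription factors that bind DNA at a core close to GTAAACA and are held out of the nucleus by insulin and growth factor signalling.

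The arrays had medians between 26.7 and 32.8 in the lines labelled FoxO-null and between 25.5 and 29.2 in those labelled wild-type. The highest of 27 bacterial control probe sets, used as the background, read 19.2 to 27.6 in the FoxO-null lines and 14.4 to 19.1 in the wild-type lines. The ratio of 3′ to 5′ Gapdh control signals, a sign of RNA integrity, was 0.789 to 0.833 in the FoxO-null lines and 0.827 to 0.928 in the wild-type lines. That of Actb was 1.029 to 1.072 in the FoxO-null lines and 1.093 to 1.121 in the wild-type lines, with no overlap, and its part in the members' values was not tested. The FoxO probe sets mostly went against the labels. Beside 8.08% of all genes tested, 5 of 9 of them read higher in all 3 lines labelled FoxO-null than in any labelled wild-type. One for Foxo3 had signals of 384, 423 and 454 in FoxO-null lines 1, 2 and 3, against 207, 249.6 and 224 in wild-type lines 1, 2 and 3. One for Foxo1 had 77.9, 77.8 and 100.3 in the lines labelled FoxO-null, against 20.3, 20.4 and 31.7 in those labelled wild-type. One for Foxo4 had 178, 57.2 and 190 in the lines labelled FoxO-null. In those labelled wild-type it had 5.56, 4.14 and 17.1, all below background. The other Foxo4 probe set was at -0.31 ± 0.41. Whether these probe sets lie inside a deleted part is not given here, so every direction below refers to the labels. All 10 neural stem and progenitor markers, Nes and Sox2 among them, were above background on all 6 arrays. Their summed signal was 31700 to 34966 in FoxO-null lines and 24971 to 33045 in wild-type lines. The median fold change of the 10 was 0.25, with 7 above 0 and 3 below, the lowest at -0.36. At an unadjusted p under 0.05 were 4, all higher in the FoxO-null lines, beside 5.31% higher over all genes tested. One, the Notch target Hes5, passed the adjusted threshold, with 406, 349 and 295 in the FoxO-null lines, against 114, 134 and 133 in the wild-type lines, 1.41 ± 0.15 with an adjusted p of 0.0163. Of 7 microglial markers, 4 were at or below background on every array.

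The 4 promoters below are examples for the motif comparison at the end, which counts matches over all listed promoters. They are RefSeq sequences of build GRCm38.p6, 250 bases before to 50 bases after the gene's start, written 5′ to 3′ on the gene's strand. Capitals mark the FoxO core in Srsf6 and Snrpf, the only members with a listed promoter that hold it. They also mark an ETS-type match in Hnrnpd and an E2F-type match in Srsf1. Hnrnpd and Srsf1 were taken from 19 and 5 members with such matches, and have the lowest fold changes among them.
Srsf6 promoter at chr2:162931258-162931557, plus strand: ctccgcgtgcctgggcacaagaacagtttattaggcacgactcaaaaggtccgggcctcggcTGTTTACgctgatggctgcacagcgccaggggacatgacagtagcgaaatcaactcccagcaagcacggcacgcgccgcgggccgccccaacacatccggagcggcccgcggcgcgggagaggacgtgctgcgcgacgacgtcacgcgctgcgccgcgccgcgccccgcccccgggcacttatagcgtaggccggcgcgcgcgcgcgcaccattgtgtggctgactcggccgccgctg
Snrpf promoter at chr10:93589609-93589908, minus strand: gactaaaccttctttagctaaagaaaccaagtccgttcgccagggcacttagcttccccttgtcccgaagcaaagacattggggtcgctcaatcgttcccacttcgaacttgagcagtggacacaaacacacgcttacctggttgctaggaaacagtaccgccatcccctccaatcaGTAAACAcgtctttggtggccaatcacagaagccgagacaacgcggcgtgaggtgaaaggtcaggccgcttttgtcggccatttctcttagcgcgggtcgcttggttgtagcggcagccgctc
Hnrnpd promoter at chr5:99978889-99979188, minus strand: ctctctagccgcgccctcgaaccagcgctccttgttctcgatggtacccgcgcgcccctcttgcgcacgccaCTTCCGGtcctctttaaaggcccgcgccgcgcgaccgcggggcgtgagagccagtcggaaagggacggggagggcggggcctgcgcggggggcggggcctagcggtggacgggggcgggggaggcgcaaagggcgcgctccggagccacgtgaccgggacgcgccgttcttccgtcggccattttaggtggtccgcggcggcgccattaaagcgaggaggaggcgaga
Srsf1 promoter at chr11:88047123-88047422, plus strand: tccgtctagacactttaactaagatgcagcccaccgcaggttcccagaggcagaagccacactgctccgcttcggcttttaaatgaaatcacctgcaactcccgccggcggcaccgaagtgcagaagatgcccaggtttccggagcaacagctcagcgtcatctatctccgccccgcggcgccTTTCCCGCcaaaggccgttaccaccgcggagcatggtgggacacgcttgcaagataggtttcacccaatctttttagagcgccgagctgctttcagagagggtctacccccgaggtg

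No splicing factor or hnRNP gene passed the test between the lines labelled FoxO-null and those labelled wild-type. Of the 62 genes, 61 were bright enough to be tested and 0 were called, beside 5 of all 12663 genes, 0.0395%, of which 4 were higher in the FoxO-null lines, 0.0316%, and 1 lower, 0.0079%. The lowest adjusted p of a member was 0.222. At an unadjusted p under 0.05 there were 12 members, 11 with the lower signal in the FoxO-null lines and 1 with the higher. Among all genes tested that level was met by 10.2%, with 4.9% lower and 5.31% higher in the FoxO-null lines, against 18.0% lower and 1.64% higher among the members. Without FoxO-null line 1 the members' count was 5, all lower.

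The members' fold changes were small and lay mostly on one side of 0. The median was -0.11, a ratio of 0.925, with quartiles of -0.23 and -0.0078. Over all genes tested the median was 0.01 and the quartiles were -0.17 and 0.19. A value below 0 was found for 48 of 61 members, 78.7%, and for 48.2% of all genes tested. For differences under -0.2 the shares were 31.1% of members and 21.5% of all genes. For those under -0.3 they were 11.5% and 12.7%, so the members' excess lay between -0.3 and 0. The genes tested go down to a signal of 16.2, and these shares were not matched for brightness. The largest difference in size was -0.57, for Srsf2, and 20 members lay within 0.1 of 0. The median standard error of a single member's fold change was 0.12, which is not an error of the list's median.

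**Figure D1:**
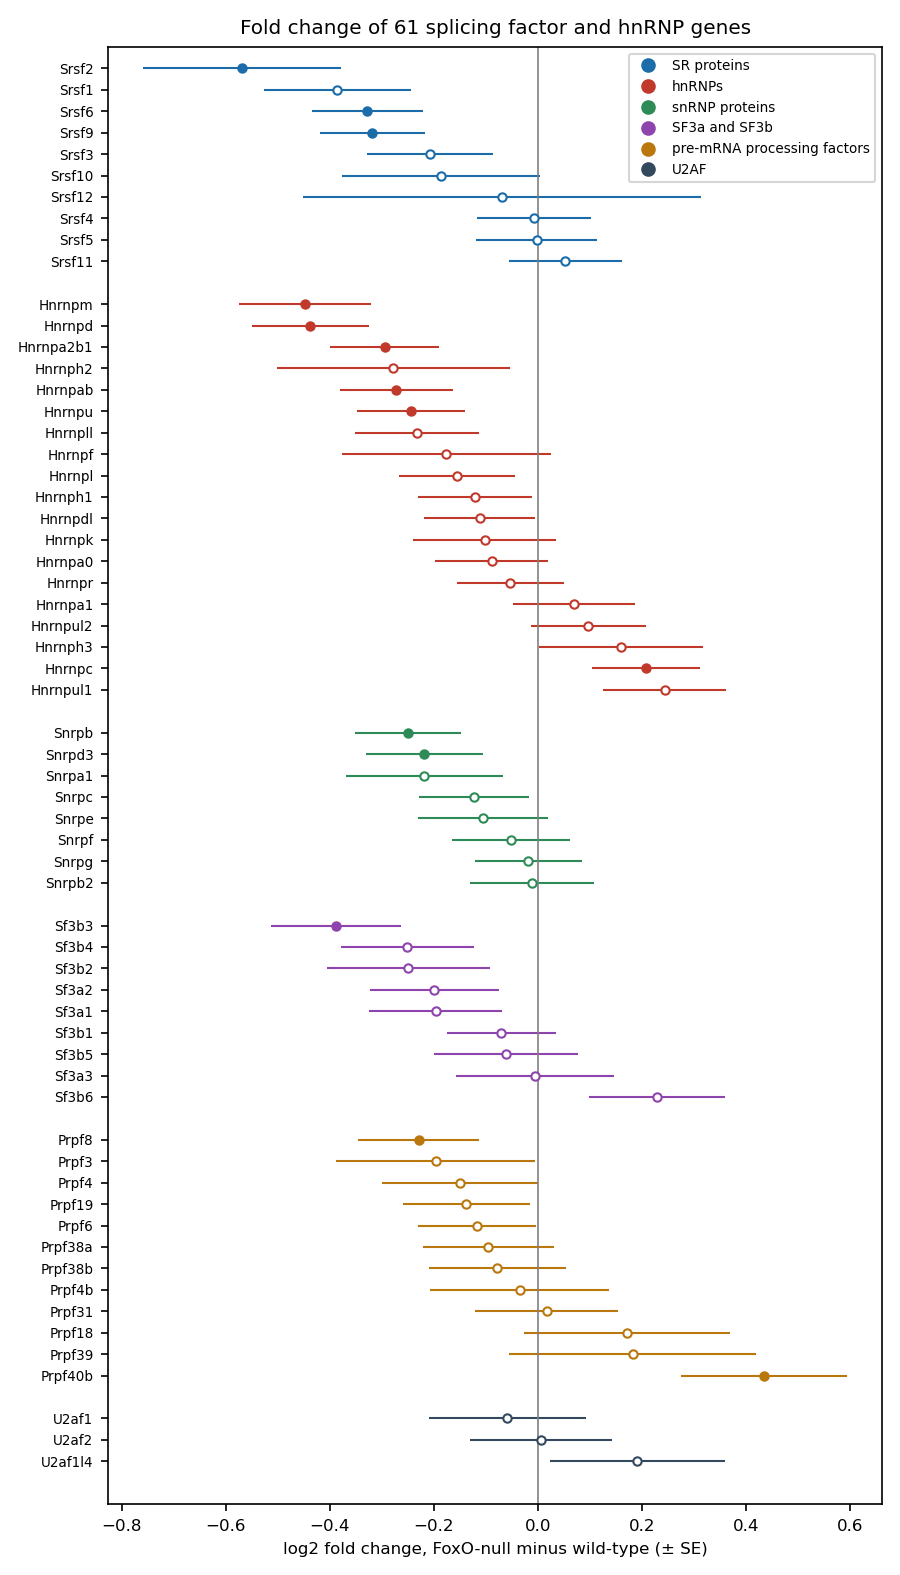
The 61 tested members by fold change on the log2 scale (x axis, positive where the FoxO-null mean is higher, with standard errors as lines), grouped by family in colour and ordered within each. Filled points are members whose 3 FoxO-null and 3 wild-type signals do not overlap. Of the points, 48 lie below 0, from -0.57 for Srsf2, and 13 above, up to 0.43 for Prpf40b.

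In 14 of the tested members, 23.0%, the 3 FoxO-null signals lay wholly to one side of the 3 wild-type signals, against 16.0% of all genes tested. In 12 of them the FoxO-null lines were the lower ones, and in 2, Hnrnpc and Prpf40b, the higher ones. Over all genes the shares were 7.93% lower and 8.08% higher. These 12 were Srsf2, Srsf6, Srsf9, Hnrnpd, Hnrnpm, Hnrnpa2b1, Hnrnpab, Hnrnpu, Snrpb, Snrpd3, Sf3b3 and Prpf8. Within a group the lines were close: the median coefficient of variation over members was 8.16% in the FoxO-null lines and 8.82% in the wild-type lines.

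**Figure D2:**
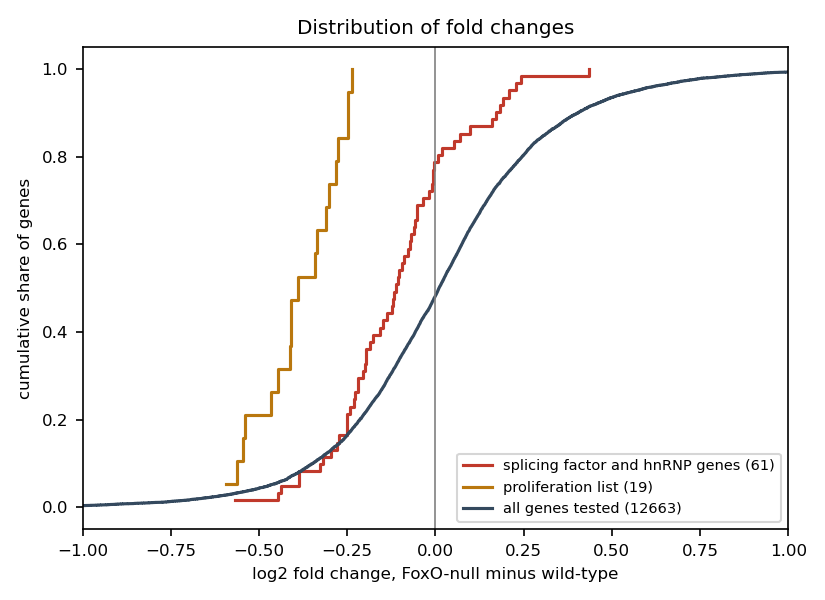
Cumulative share (y axis) of the 61 members, of 19 proliferation genes and of all 12663 genes tested at or below each fold change (x axis, log2 scale, positive where FoxO-null is higher). The members' curve lies left of that for all genes near 0, with medians of -0.11 and 0.01, and meets it near -0.3.

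The lines of a group did not all stand alike. Set against their own 6-array means, 15, 33 and 16 of 61 members were higher in FoxO-null lines 1, 2 and 3, and 44, 40 and 34 in wild-type lines 1, 2 and 3. The median deviation on the log2 scale was -0.09, 0.01 and -0.11 in the FoxO-null lines and 0.10, 0.04 and 0.05 in the wild-type lines. FoxO-null lines 1 and 3 were thus the low ones and wild-type line 1 the highest, while FoxO-null line 2 was near the middle. Wild-type line 1 also had the highest signal of the 18S ribosomal RNA 5′ control probe set, 211, against 23.5 to 28.5 in the FoxO-null lines and 38.7 and 38.9 in the other wild-type lines. What that control's level has to do with the members was not tested. Without wild-type line 1, 46 members were still below 0 and the median was -0.08. Without FoxO-null line 1, 43 were below 0 and the median was -0.09.

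**Figure D3:**
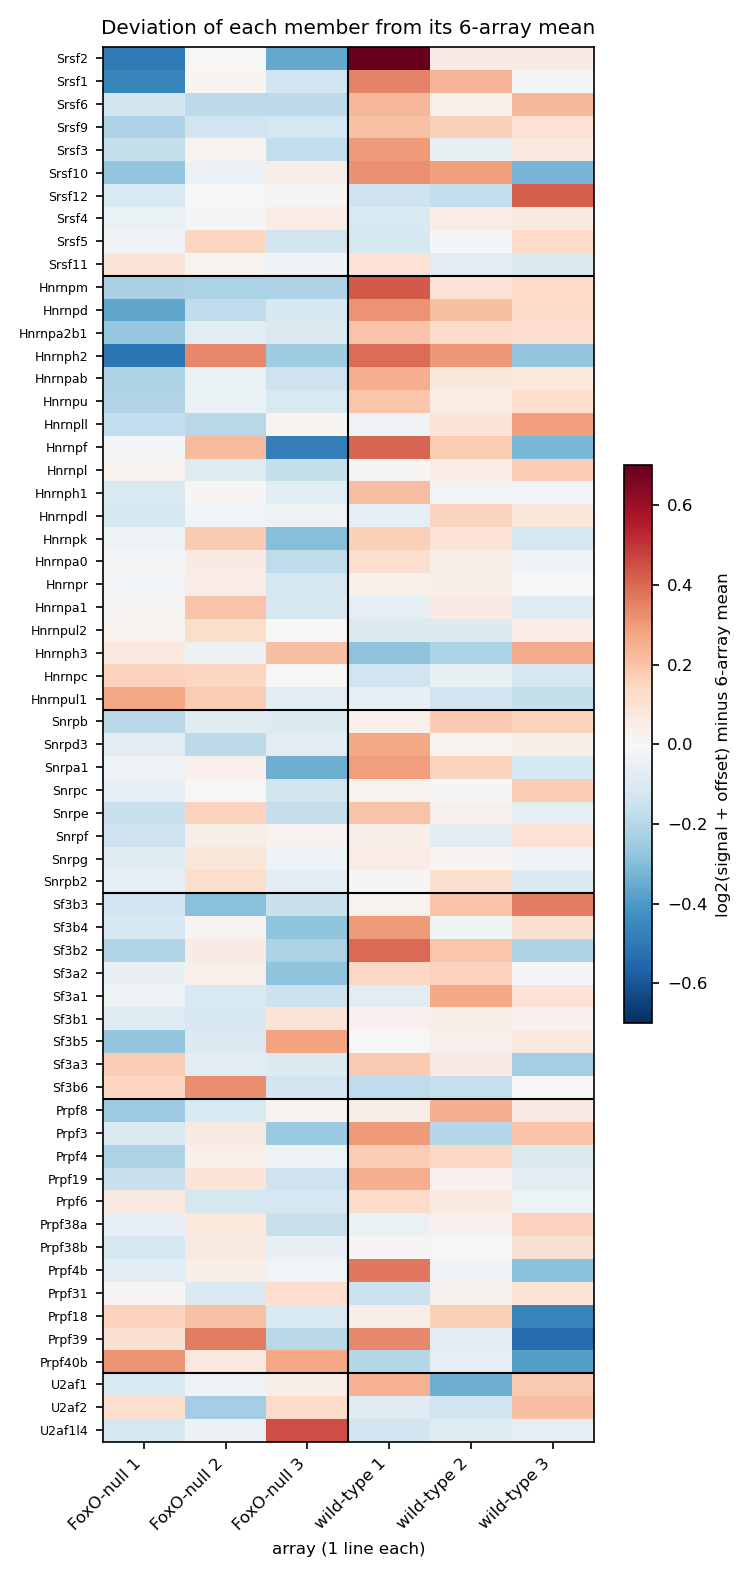
Deviation of each member's log2(signal + 5.94) from its own mean over the 6 arrays (colour), with the members down the page by family and the lines across, FoxO-null left of wild-type. FoxO-null lines 1 and 3 are mostly below 0, with medians of -0.09 and -0.11, and wild-type line 1 is mostly above, with 0.10.

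Among the SR proteins, 9 of 10 members were below 0, with a median of -0.20, and 4 were at an unadjusted p under 0.05. Srsf9, which can shift splice site choice, had signals of 852, 902 and 911 in the FoxO-null lines, against 1145, 1116 and 1067 in the wild-type lines. Every FoxO-null line was below every wild-type line. The means were 889 ± 31.5 in FoxO-null and 1109 ± 39.5 in wild-type lines (SD, n = 3 each), and the log2 difference was -0.32 ± 0.10 (SE), with an adjusted p of 0.309 in limma. Srsf6, an exon-binding regulator of alternative splicing, had 784, 754 and 754 in the FoxO-null lines, against 1006, 877 and 1003 in the wild-type lines. These groups too were apart, with means of 764 ± 17.0 in FoxO-null and 962 ± 73.5 in wild-type lines, a log2 difference of -0.33 ± 0.11 and an adjusted p of 0.321.

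Srsf2, a nuclear SR protein that binds exonic enhancers, had 506, 716 and 558 in the FoxO-null lines, against 1201, 744 and 746 in the wild-type lines. The groups did not overlap, but FoxO-null line 2 came close to wild-type lines 2 and 3, and wild-type line 1 stood far above the rest. Its log2 difference was -0.57 ± 0.19 with an adjusted p of 0.335, and -0.34 without wild-type line 1. Srsf1, the founding member of the family and a regulator of constitutive and alternative splicing, had 964, 1339 and 1208 in the FoxO-null lines, against 1691, 1567 and 1316 in the wild-type lines. FoxO-null line 2 lay above wild-type line 3, so the groups overlapped. The log2 difference was -0.39 ± 0.14, with an adjusted p of 0.382, and -0.25 without FoxO-null line 1.

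Srsf3, the smallest of the classical SR proteins, had 946, 1079.7 and 943 in the FoxO-null lines, against 1307, 1022 and 1112 in the wild-type lines. The groups overlapped, and the log2 difference was -0.21 ± 0.12 with an adjusted p of 0.599, and -0.11 without wild-type line 1. Srsf5 had 1828, 2067 and 1698 in the FoxO-null lines, against 1705, 1847 and 2049 in the wild-type lines, a difference of -0.0027 ± 0.12. For Srsf4 and Srsf11 the differences were -0.01 ± 0.11 and 0.05 ± 0.11. Srsf10, a repressor when dephosphorylated, had -0.19 ± 0.19, with wild-type line 3, at 139, below every other line. Srsf12 was not above background in any FoxO-null line, at 18.3, 20.1 and 20.3, against 17.7, 17.2 and 29.0 in the wild-type lines, which all passed their lower backgrounds, so no fold is given for it, though it counts among those tested.

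**Figure D4:**
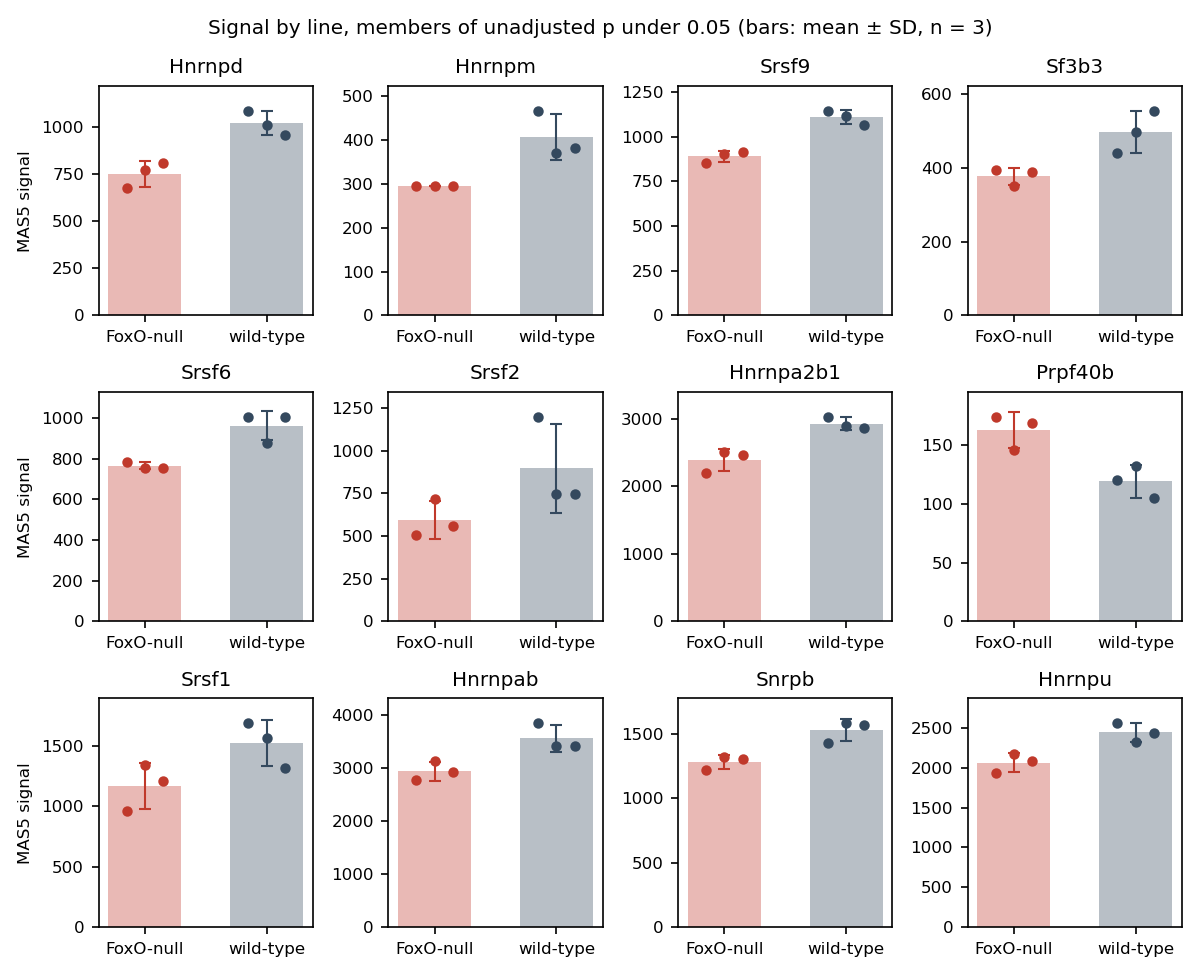
Signals of the 12 members at an unadjusted p under 0.05 (y axis, MAS5 signal, its own scale from 0 in each panel) in the 3 FoxO-null lines, left, and the 3 wild-type lines, right. Points are lines, bars are means and whiskers SD. Prpf40b is higher in all 3 FoxO-null lines, Srsf1 overlaps, and the other 10 are lower in all 3.

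Of the 19 hnRNPs, 14 were below 0, with a median of -0.12, and 5 were at an unadjusted p under 0.05, all lower in the FoxO-null lines. Hnrnpd, also known as AUF1, which binds AU-rich elements and affects messenger stability, had the lowest p of any member. Its signals were 677, 771 and 809 in the FoxO-null lines, against 1087, 1011 and 960.3 in the wild-type lines, with no overlap. The means were 752 ± 67.9 in FoxO-null and 1019.5 ± 64.0 in wild-type lines (SD, n = 3 each), a log2 difference of -0.44 ± 0.11 with an unadjusted p of 0.00235 and an adjusted p of 0.222 in limma. A second, dimmer Hnrnpd probe set had 96.5, 82.1 and 95.1 in the FoxO-null lines, against 98.1, 100.9 and 78.7 in the wild-type lines, overlapping at -0.02 ± 0.19. Hnrnpm, a splicing regulator that binds GU-rich sequences, had 294, 296 and 296 in the FoxO-null lines, against 467, 371 and 382 in the wild-type lines. The FoxO-null lines were nearly identical, and nearly all the spread was among the wild-type lines. The log2 difference was -0.45 ± 0.13, with an adjusted p of 0.267.

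Hnrnpa2b1, which binds nuclear RNA and takes part in messenger transport in neural cells, had 2197, 2499.7 and 2460.3 in the FoxO-null lines, against 3028, 2883 and 2861 in the wild-type lines. The groups were apart, with a log2 difference of -0.29 ± 0.10 and an adjusted p of 0.371. The other Hnrnpa2b1 probe sets, dimmer but above background on all 6 arrays, overlapped between groups, at -0.0087, -0.11 and 0.03. Hnrnpab, an hnRNP of the A/B type, had 2776, 3130.3 and 2919 in the FoxO-null lines, against 3855, 3409 and 3405 in the wild-type lines, and -0.27 ± 0.11 with an adjusted p of 0.416. Hnrnpu, the scaffold attachment factor that binds both RNA and chromatin, had 1935, 2166 and 2083 in the FoxO-null lines, against 2563, 2326 and 2432 in the wild-type lines. For Hnrnpu the log2 difference was -0.24 ± 0.10 and the adjusted p 0.449. In each of these 3 genes FoxO-null line 1 was the lowest of all lines and wild-type line 1 the highest.

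Hnrnpc, which packages nascent RNA and binds uridine tracts, had the opposite order, with 3355, 3329 and 3008 in the FoxO-null lines, against 2721, 2897 and 2766 in the wild-type lines. All FoxO-null lines were above all wild-type lines, yet the log2 difference was 0.21 ± 0.10 and the adjusted p 0.532. Hnrnpul1, a relative of Hnrnpu, had 913, 856 and 717 in the FoxO-null lines, against 726, 686 and 674 in the wild-type lines, a difference of 0.24 ± 0.12 in which FoxO-null line 3 lay inside the wild-type range. Hnrnpa1, the most studied antagonist of SR proteins, had 745, 844 and 676 in the FoxO-null lines, against 699, 764 and 688 in the wild-type lines. It overlapped throughout, with 0.07 ± 0.12 and an adjusted p of 0.882.

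Of the F and H types, which bind G-rich runs, Hnrnpf and Hnrnph2 spread widely between lines of the same group. Hnrnpf had 1646, 1925 and 1185 in the FoxO-null lines, against 2195, 1868 and 1322 in the wild-type lines, and Hnrnph2 had 212, 385 and 254 in the FoxO-null lines, against 399, 375 and 249.5 in the wild-type lines. Their log2 differences were -0.18 ± 0.20 and -0.28 ± 0.22, with errors nearly as large or larger. With 1 line left out, Hnrnpf ran from -0.38 without wild-type line 3 to 0.02 without FoxO-null line 3, and Hnrnph2 from -0.52 without FoxO-null line 2 to -0.09 without FoxO-null line 1. Hnrnph3 was 0.16 ± 0.16 and Hnrnph1 -0.12 ± 0.11. Hnrnpdl, a paralog of Hnrnpd, had 2885, 3077 and 3049.6 in the FoxO-null lines, against 2987, 3474 and 3295 in the wild-type lines, -0.11 ± 0.11. Hnrnpk, a poly-C-binding protein with roles in transcription and translation, had 2624, 3061 and 2185 in the FoxO-null lines, against 3026, 2888 and 2486 in the wild-type lines, -0.10 ± 0.14. The groups overlapped for both genes. Hnrnpdl ran from -0.17 without wild-type line 1 to -0.06 without wild-type line 2, and Hnrnpk from -0.22 without FoxO-null line 2 to 0.02 without FoxO-null line 3. Hnrnpll and Hnrnpl, which are close relatives, were at -0.23 ± 0.12 and -0.16 ± 0.11, Hnrnpa0 at -0.09 ± 0.11, Hnrnpr at -0.05 ± 0.10 and Hnrnpul2 at 0.10 ± 0.11.

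Of the snRNP proteins, all 8 tested were below 0, with a median of -0.11, and 1 was at an unadjusted p under 0.05. Snrpb, which encodes the Sm proteins B and B′ of the shared ring, had 1222, 1321 and 1307 in the FoxO-null lines, against 1431, 1586 and 1564 in the wild-type lines. The groups were apart, with means of 1283 ± 53.3 in FoxO-null and 1527 ± 83.8 in wild-type lines, a log2 difference of -0.25 ± 0.10 and an adjusted p of 0.434. A second Snrpb probe set gave -0.29 ± 0.11, with 1140.4, 1219 and 1292 in the FoxO-null lines, against 1372, 1594 and 1515 in the wild-type lines. Snrpd3, another Sm ring protein, had 674, 624 and 673 in the FoxO-null lines, against 855, 717 and 729 in the wild-type lines, also apart, with -0.22 ± 0.11 and an adjusted p of 0.545. Without wild-type line 1 it was at -0.14.

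The other tested Sm ring members overlapped between groups. Snrpd1 and Snrpd2, of the same ring, had no 1-gene probe set under those symbols and are not among the 62 genes. Snrpe had 1439, 1799.9 and 1432 in the FoxO-null lines, against 1847, 1638 and 1529 in the wild-type lines, -0.11 ± 0.12, and it ran from -0.21 without FoxO-null line 2 to -0.03 without wild-type line 1. Snrpf, whose promoter is printed above, had 469.8, 534 and 528 in the FoxO-null lines, against 537, 494 and 557 in the wild-type lines, -0.05 ± 0.11. Snrpg had 1976, 2227 and 2058 in the FoxO-null lines, against 2174, 2116 and 2046 in the wild-type lines, -0.02 ± 0.10. Among proteins of the U1 and U2 particles, Snrpc was at -0.12 ± 0.11, Snrpa1 at -0.22 ± 0.15 and Snrpb2 at -0.01 ± 0.12. Snrpn, an imprinted gene and the neuronal counterpart of Snrpb, was the 1 member not tested. Its 1-gene probe set read 4.99, 4.46 and 4.88 in the FoxO-null lines, against 2.48, 1.42 and 3.98 in the wild-type lines, below background on every array. Other probe sets list Snrpn together with further genes and were not used. Snrnp70, the U1 70K protein, whose symbol does not begin with Snrp, had 587, 530.3 and 653 in the FoxO-null lines, against 507, 564 and 611 in the wild-type lines, 0.07 ± 0.12.

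In the U2-associated SF3 complexes, 8 of 9 members were below 0, with a median of -0.20. Sf3b3, a large scaffold subunit of SF3b, had 393, 351 and 387 in the FoxO-null lines, against 439, 496 and 555 in the wild-type lines. Every FoxO-null line was below every wild-type line, with means of 377 ± 22.9 in FoxO-null and 497 ± 57.8 in wild-type lines, a log2 difference of -0.39 ± 0.12 and an adjusted p of 0.316. Sf3b1, the subunit that grips the branch point helix, had 1022, 1005 and 1161 in the FoxO-null lines, against 1109, 1125 and 1109 in the wild-type lines. FoxO-null line 3 was the highest of all 6, and the difference was -0.07 ± 0.10. Sf3b5 had 861, 971 and 1268 in the FoxO-null lines, against 1044, 1063 and 1086 in the wild-type lines, -0.06 ± 0.14, and again FoxO-null line 3 was the highest. Sf3b4, Sf3b2, Sf3a2 and Sf3a1 were between -0.25 and -0.20 with errors of 0.12 to 0.16. Sf3b6, which contacts the branch point adenosine, stood above 0, at 0.23 ± 0.13, and its 2 other probe sets above background on all arrays were above 0 as well. Sf3a3 was at -0.01 ± 0.15 by its brightest probe set.

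The pre-mRNA processing factors had a median of -0.09, with 8 of 12 below 0. Prpf40b, a WW-domain protein linked to early splice site recognition, was the 1 member with the higher signal in the FoxO-null lines at an unadjusted p under 0.05. It had 174, 145 and 168 in the FoxO-null lines, against 120.0, 132 and 105 in the wild-type lines, with no overlap. The means were 163 ± 15.2 in FoxO-null and 119 ± 13.8 in wild-type lines, the log2 difference was 0.43 ± 0.16 and the adjusted p 0.381. Prpf8, the central scaffold at the spliceosome's catalytic core, had 672, 744 and 814 in the FoxO-null lines, against 827, 954 and 834 in the wild-type lines. These were apart by a small gap, with -0.23 ± 0.12 and an adjusted p of 0.538. Prpf19, the ubiquitin ligase that names its own complex, had 1501, 1789.9 and 1516 in the FoxO-null lines, against 1999.8, 1709 and 1587 in the wild-type lines, an overlapping pair of groups at -0.14 ± 0.12. It ran from -0.22 without FoxO-null line 2 to -0.04 without wild-type line 1. Among the factors of the U4, U5 and U6 particles, Prpf3 was at -0.20 ± 0.19, Prpf4 at -0.15 ± 0.15, Prpf6 at -0.12 ± 0.11 and Prpf31 at 0.02 ± 0.14. Prpf38a, Prpf38b and the kinase Prpf4b lay between -0.10 and -0.04, and Prpf18 and Prpf39 were at 0.17 ± 0.20 and 0.18 ± 0.24.

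The U2AF genes did not share a side. U2af1, the subunit that reads the AG at the intron's end, had 706, 742 and 785 in the FoxO-null lines, against 900.2, 598 and 863 in the wild-type lines, -0.06 ± 0.15. U2af2, the subunit that binds the pyrimidine tract, had 889.6, 698 and 904 in the FoxO-null lines, against 776, 750.3 and 952 in the wild-type lines, 0.01 ± 0.14. Both overlapped between groups, and wild-type line 2 was the lowest line for U2af1. U2af1l4, a paralog of U2af1, was at 0.19 ± 0.17, with its highest signal, 257, in FoxO-null line 3.

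Most members had more than 1 probe set, and these did not always go the same way. The 62 genes had 174 probe sets, of which 152 were above background on all 6 arrays, and 40 members had at least 2 such probe sets. In 15 of the 40 all were below 0, in 3, Hnrnpc, Hnrnpul2 and Sf3b6, all were above 0, and in 22 they differed in sign. The 22 were Hnrnpa1, Hnrnpa2b1, Hnrnpab, Hnrnpdl, Hnrnph1, Hnrnpk, Hnrnpu, Prpf31, Prpf39, Prpf4, Prpf4b, Prpf6, Sf3b2, Sf3b4, Snrpa1, Snrpd3, Snrpg, Srsf10, Srsf11, Srsf2, Srsf3 and Srsf6. Of the 174 probe sets, 12.6% were at an unadjusted p under 0.05, 20 of them lower and 2 higher in the FoxO-null lines. The share was 7.24% of all 45037 probe sets, which include dim ones left out of the test by gene. These shares were thus not matched for brightness. Among the genes tested the share was 10.2%, with 4.9% lower and 5.31% higher in the FoxO-null lines. None of the 174 passed the adjusted threshold. Probe sets of one gene can read different transcripts or parts of them, which the annotation used here does not give.

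Srsf1 was the member whose probe sets held together over the most measurements, with all 6 of those above background below 0, from -0.61 to -0.23. One had 459, 555 and 552 in the FoxO-null lines, against 1088, 680.3 and 687 in the wild-type lines, so here the groups were apart, unlike in the brightest probe set. Srsf2 was mixed: 3 probe sets were at -0.57, -0.29 and -0.11, and a dim one had 77.6, 85.6 and 85.6 in the FoxO-null lines, against 61.7, 63.4 and 55.6 in the wild-type lines, 0.43 ± 0.20. Averaged over all its probe sets Srsf2 was at -0.14. Hnrnpab ranged from -0.93 to 0.19 over 7 probe sets, and the lowest had 838, 1170.3 and 861 in the FoxO-null lines, against 3379.8, 1597 and 1094 in the wild-type lines, which overlap. One Hnrnpf probe set other than the brightest had 817, 865 and 884 in the FoxO-null lines, against 1100.5, 1068 and 1066 in the wild-type lines, apart at -0.33 ± 0.10. Sf3a3 had a second probe set with 202, 177 and 202 in the FoxO-null lines, against 267, 271 and 238 in the wild-type lines, apart at -0.41 ± 0.13. For Snrpa1 the order turned: a second probe set had 309, 304 and 287 in the FoxO-null lines, against 242, 220.0 and 259 in the wild-type lines, 0.31 ± 0.12.

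**Figure D5:**
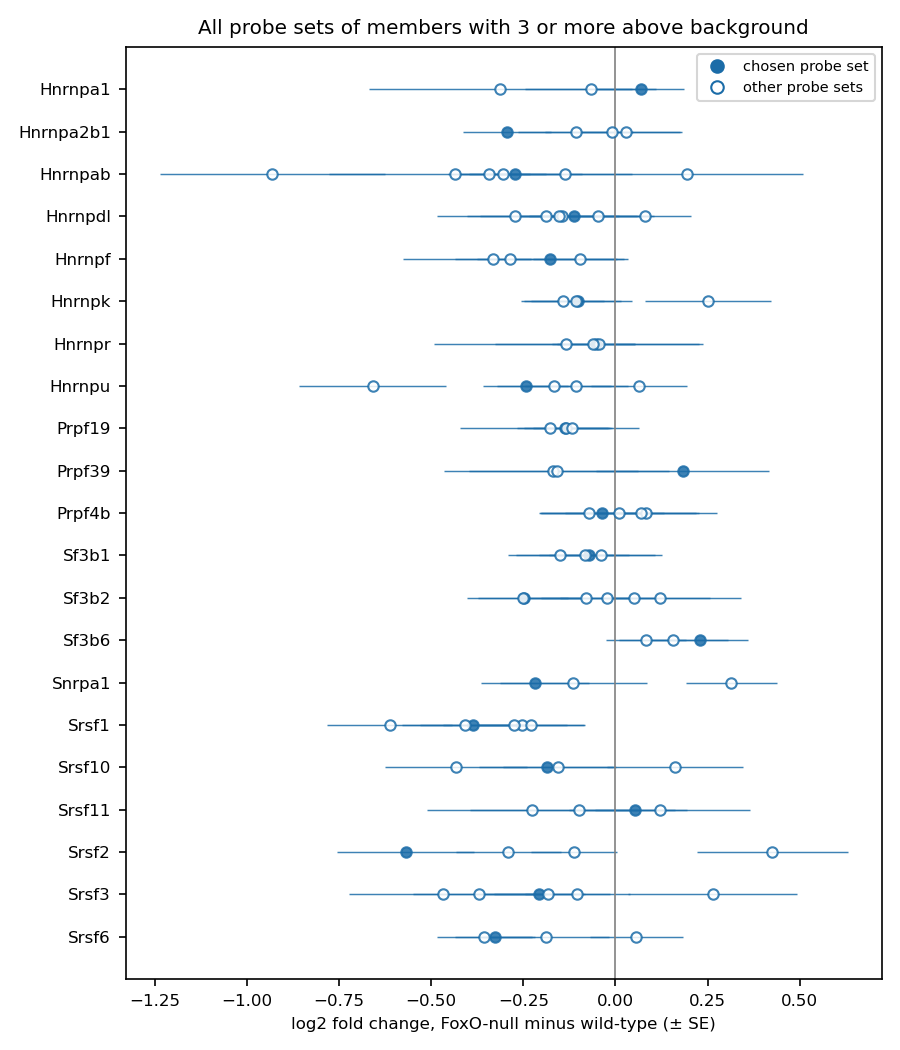
Fold change on the log2 scale (x axis, with SE as lines, positive where FoxO-null is higher) of every probe set above background on all 6 arrays, for the 21 members with 3 or more of them (down the page). Filled points are the probe sets that represent each gene. The 6 Srsf1 probe sets all lie below 0, those of Sf3b6 all above, and those of Hnrnpab run from -0.93 to 0.19.

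Other genes of the splicing machinery that lack the members' symbols were followed in 7 lists, and 0 of their genes were called. Of 109 tested, not counting members, 69 were below 0, with a median of -0.07, beside 48.2% below 0 over all genes tested. At an unadjusted p under 0.05 were 7, all lower in the FoxO-null lines, beside 4.9% lower and 5.31% higher over all genes. Groups were apart in 17 with the FoxO-null lines lower and 7 with them higher, beside 7.93% and 8.08% of all genes. In the 35 tri-snRNP, Prp19-complex and catalytic-step factors 28 were below 0, with a median of -0.09. Eftud2, the GTPase of the U5 particle, had 703, 947 and 829 in the FoxO-null lines, against 1124, 1067 and 997 in the wild-type lines, apart at -0.37 ± 0.13 with an adjusted p of 0.348. Sart1 and Usp39, both needed for the tri-snRNP, were at -0.39 ± 0.15 and -0.34 ± 0.14. In the 12 LSm proteins, relatives of the Sm ring proteins, 8 were below 0, with a median of -0.20. Lsm4 was at -0.32 ± 0.12, Lsm7 at -0.24 ± 0.13 and Lsm14a at -0.26 ± 0.15.

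The lists of regulators that act on SR proteins or set neural splicing had medians nearer to 0 than that of the members. The 10 kinases and phosphatases that act on splicing factors, the member Prpf4b among them, had a median of -0.03, with Clk3 at -0.27 ± 0.17, Clk2 at -0.21 ± 0.14 and Ppp1r8 at -0.15 ± 0.13. In the 27 tested neural and other tissue-regulated factors 13 were below 0, with a median of 0.0011. Their values ran from -0.44 to 0.43, and some, such as Rbfox1 at -0.44 ± 0.61, came from signals near background. Ptbp1, the repressor of neuronal exons in progenitors, had 974, 1028 and 906 in the FoxO-null lines, against 1299, 1214 and 1393 in the wild-type lines. The groups did not overlap, with -0.42 ± 0.11, an unadjusted p of 0.00217 and an adjusted p of 0.215. Ptbp2, its neuronal paralog, was at -0.16 ± 0.12, Mbnl1 at -0.25 ± 0.12 and Qk, a glial RNA-binding protein, at 0.31 ± 0.15. Srrm4, which activates neuronal microexons, was too dim to be tested, with 14.4, 18.3 and 4.87 in the FoxO-null lines, against 4.74, 21.4 and 42.1 in the wild-type lines.

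Among 18 SR-related and exon-definition factors 11 were below 0, with a median of -0.11, Tra2b at -0.23 ± 0.12, Rnps1 at -0.21 ± 0.12 and Pspc1 at 0.27 ± 0.16. Of 9 listed genes of the exon junction complex and its decay partners, 5 had a 1-gene probe set. Of these 4 were tested, 0 of them at an unadjusted p under 0.05. Their median was 0.15, with Casc3, Upf1 and Upf2 at 0.16 ± 0.11, 0.18 ± 0.20 and 0.14 ± 0.17. Among the 4 tested FET proteins and Tardbp, 3 were below 0. Tardbp, which encodes TDP-43, had 359.6, 481 and 397 in the FoxO-null lines, against 686, 536 and 519.7 in the wild-type lines, apart at -0.49 ± 0.15 with an adjusted p of 0.292. Ewsr1 was at -0.17 ± 0.14 and Taf15 at 0.03 ± 0.23.

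Proliferation genes differed in the same direction as the members by a larger amount, and 0 were called. All 19 tested were below 0, with a median of -0.39, 15 were at an unadjusted p under 0.05 and 11 had groups apart. Mcm5, a subunit of the replicative helicase, had 572, 661 and 641 in the FoxO-null lines, against 1029.7, 912 and 810.4 in the wild-type lines, -0.55 ± 0.12 with an adjusted p of 0.179. Plk1, a mitotic kinase, was at -0.45 ± 0.12 and Mcm7 at -0.41 ± 0.11. The list's median deviation was -0.32, -0.17 and -0.11 in FoxO-null lines 1, 2 and 3, and 0.23, 0.11 and 0.24 in wild-type lines 1, 2 and 3. FoxO-null line 1 was the lowest for these genes, and FoxO-null line 3, among the lowest for the members, was the nearest to 0 of its group. Astrocyte markers summed to 6573 to 7601 in the FoxO-null lines and 4550 to 5844 in the wild-type lines, and oligodendrocyte markers to 17160 to 17913 in the FoxO-null lines and 13866 to 15421 in the wild-type lines. At an unadjusted p under 0.05 were 4 of 8 tested astrocyte markers and 5 of 8 tested oligodendrocyte markers. All of these were higher in the FoxO-null lines, beside 5.31% higher over all genes tested. Among them Cnp alone was called, at 0.87 ± 0.12 with an adjusted p of 0.0496. Below 0 were 1 astrocyte and 2 oligodendrocyte markers. Of 8 tested neuron markers 5 were below 0, with a median of -0.05, and 1 was lower at an unadjusted p under 0.05. The 8 astrocyte markers were all above background on all 6 arrays, as were 8 of 9 oligodendrocyte markers. The part of these genes in the members' values was not tested, and in bulk RNA fewer cells of a type and less RNA per cell cannot be told apart.

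Promoters were listed for 55 of the 62 members and for 27025 genes in all. The FoxO core GTAAACA, on either strand, was found in 2 members, Srsf6 and Snrpf, 3.64%, against 4.05% of all genes. In Srsf6 it begins 188 bases before the start and in Snrpf 73 bases before it, and these genes were at -0.33 and -0.05, neither called. An ETS-type sequence, CCGGAAG, stood in 19 members, 34.5%, against 9.93% of all genes. Fold changes of these 19 were of both signs, from -0.44 for Hnrnpd to 0.23 for Sf3b6. The GC box GGGCGG was in 65.5% of members and 38.2% of all genes, and CCAAT in 52.7% of members and 41.1% of all genes. An E2F-type sequence, TTTCCCGC, was in 5 members, Srsf1, Srsf10, Hnrnpr, Hnrnpul1 and U2af1, 9.09%, against 1.24% of all genes. Their fold changes were of both signs, from -0.39 for Srsf1 to 0.24 for Hnrnpul1. The median GC content of the members' promoters was 7.33 percentage points above the 52.7% over all genes, and GC-rich motifs are more frequent in GC-rich sequence. None of the matches printed above overlaps another of these motifs, and a match of letters does not show that a factor binds there.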

How the data were processed

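Total RNA from 6 lines was hybridised to 1 Affymetrix array each. Per the submitters' processing notes, the deposited intensity values came from MAS5, of unstated version. The mean of each array after trimming 2% at each end was 100, so the deposited scaling was kept. Genes were named from the platform annotation: 34945 probe sets had 1 gene, 932 several and 9160 none. An offset of 5.94, the 20th percentile of the signals, was added before taking log2, which understates fold changes of dim genes. Genes whose mean log2 was under the 40th percentile of probe sets, a signal of 16.2, were left out. Groups were compared two-sided in R 4.3.3 with limma 3.58.1 (lmFit, then eBayes with trend), adjusting by Benjamini-Hochberg over 12663 genes, and lines were treated as independent because the labels call them so. Python 3.11.15 made the tables.

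All members may be named. Those chosen by rule to be given line by line were at an unadjusted p under 0.05, among the 2 brightest of their family, or classical factors such as Hnrnpa1. Of each further list the 3 of smallest p are named, with Ptbp1, Ptbp2, Srrm4 and Tra2b. A further 7 members, Hnrnpc, Hnrnpul1, Hnrnpf, Hnrnph2, Hnrnpk, Snrpd3 and Snrpf, and the second probe sets were given line by line after their values were seen. Members and lists were chosen with earlier results of these data known. Alternatives changed the scaling, offset, filter, probe set choice, trend, replicate block and arrays. The number of arrays limits the precision, and an exact permutation test of 3 lines against 3 cannot give a p under 0.1. On simulated data with 200 of 12663 genes changed, 80.1% of 4-fold and 48.5% of 2-fold changes were recovered, and 4.67% of calls were false. Smaller changes, such as those of the members, at most 0.57 in size on the log2 scale, were not simulated.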

Additional observations from a re-analysis of the deposited data

How the results depend on the processing

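No member was called under any of the 10 alternative settings or the 6 fits that left out 1 array, and the smallest adjusted p among 31 members given line by line was 0.182. Of their 496 values 474 kept their direction and 22 turned, in 10 members. The genes called over the whole table numbered 5, against 0 with median centring, 1 with quantile normalization, 1 with an offset of 1, 1 with no filter, 1 with the mean of all probe sets, 0 with no intensity trend and 0 to 11 with an array left out (0 without FoxO-null line 1, 11 without wild-type line 3, 1 without FoxO-null line 3). Members at an unadjusted p under 0.05 were 12, against 6 with no trend and 5 to 13 with an array left out, the 5 without FoxO-null line 1. The 11 lower ones became 6 with the mean of all probe sets, 5 with no trend and 5 to 12 with an array left out. The 1 higher one became 0 with median centring, 2 with quantile normalization, 2 with the mean of all probe sets and 0 to 3 with an array left out. Median centring moved the members' median to -0.18 and that of all genes to -0.06, and leaving out an array gave -0.16 to -0.08. Members below 0 were 43 to 48 with an array left out.

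These single values turned sign: U2af2 with median centring (-0.062), Srsf5 with quantile normalization (0.0068), and with the mean of all probe sets Prpf19 (0.0027), Sf3b5 (0.081), Snrpg (0.030) and Hnrnpa1 (-0.10). With an array left out Hnrnpa1 ran from -0.014 to 0.145, Sf3b5 from -0.218 to 0.060, Snrpg from -0.066 to 0.020, Srsf5 from -0.079 to 0.066, U2af1 from -0.244 to 0.049, U2af2 from -0.059 to 0.126, Hnrnpf from -0.380 to 0.019, Hnrnpk from -0.220 to 0.022 and Snrpf from -0.100 to 0.0064. The causes were not tested. Lines with the same replicate number had deviations that correlated at 0.02, 0.09 and 0.12, so the numbers were not taken to pair the lines. With the replicate block 6 genes and 0 members were called, and 12 members were at an unadjusted p under 0.05. Groups that do not overlap were not counted with an array left out. Signals near background, such as those of Srsf12, Snrpn and Srrm4, limit what can be said of those genes.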
